A study of Homo sapiens with 6 samples.

Results

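The lysosome and autophagy genes described here are 44 genes chosen by symbol for what their products do, out of 36459 gene symbols with counts. They comprise lysosomal enzymes and membrane proteins, the steps of autophagy from initiation to cargo receptors, and the TFEB-family transcription factors that control many of these genes. All 44 were among the 14626 genes abundant enough to be tested. RNA was sequenced from PC9, a line of human lung cancer cells (NSCLC) whose growth depends on the EGF receptor. The 3 parental libraries (PC9) were set against 3 libraries of persister cells (PSPC9), which had survived 15 µM of the EGF receptor kinase inhibitor erlotinib for 6 days. The libraries were made from RNA with poly-A tails, and they held from 29476725 to 34893782 gene counts. Per the study, the PSPC9 libraries were pooled from 9 cultures into 3, whereas the PC9 libraries came from 3 cultures. Every library is of the same line, so the values describe one model, and the presence of the drug and the persister state cannot be told apart.

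Lysosomes are acidic compartments in which hydrolases break down proteins, glycans and lipids, and a proton pump in their membrane keeps them acidic. Autophagy delivers cytoplasmic cargo to them. A membrane is formed around the cargo, ATG8 proteins are attached to its lipids, receptors tether the cargo to the ATG8 proteins, and the closed vesicle fuses with a lysosome. When nutrients or mTORC1 activity are low, TFEB and TFE3 move into the nucleus and bind a palindromic element in the promoters of lysosomal genes, the CLEAR element.

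The genes moved in both directions between PC9 and PSPC9, mostly by small amounts. At a limit of 0.01 on the adjusted p (quasi-likelihood test of edgeR, Benjamini-Hochberg method over all genes tested), 32 of the 44 (72.7%) passed, beside 56.8% of all genes. Of these, 20 (45.5%) were higher in PSPC9, beside 28.7% of all genes, and 12 (27.3%) were lower, beside 28.1%. The counts by role that follow are of 3 to 7 genes each and stand beside the same shares of all genes. With a change of at least 1.5-fold also required, 3 remained higher (SMPD1, ULK1 and SQSTM1), where 11.4% of all genes were, and 3 remained lower (CTSL, CTSS and NBR1), where 12.6% were. The share past this stricter rule was thus 13.6% of these genes and 23.9% of all genes. Their log2 fold changes (PSPC9 over PC9) ran from −0.74 to 1.22 with a median of 0.12, against a median of −0.0061 over all genes. Together they took 0.576, 0.614 and 0.593% of the gene counts in the PC9 libraries and 0.648, 0.651 and 0.654% in the PSPC9 libraries. Without SQSTM1, an alternative added after seeing the data, the shares were 0.512, 0.545 and 0.527% in PC9 and 0.545, 0.544 and 0.548% in PSPC9. These overlap narrowly, at 0.545% in PC9 replicate 2 and 0.544% in PSPC9 replicate 2. All these shares are of unscaled counts. The scaling factors used for the other levels, 1.01 to 1.02 in PC9 and 0.975 to 0.991 in PSPC9, were not applied to them. In bulk RNA a lower level in every cell and fewer cells expressing a gene cannot be told apart.

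**Figure D1:**
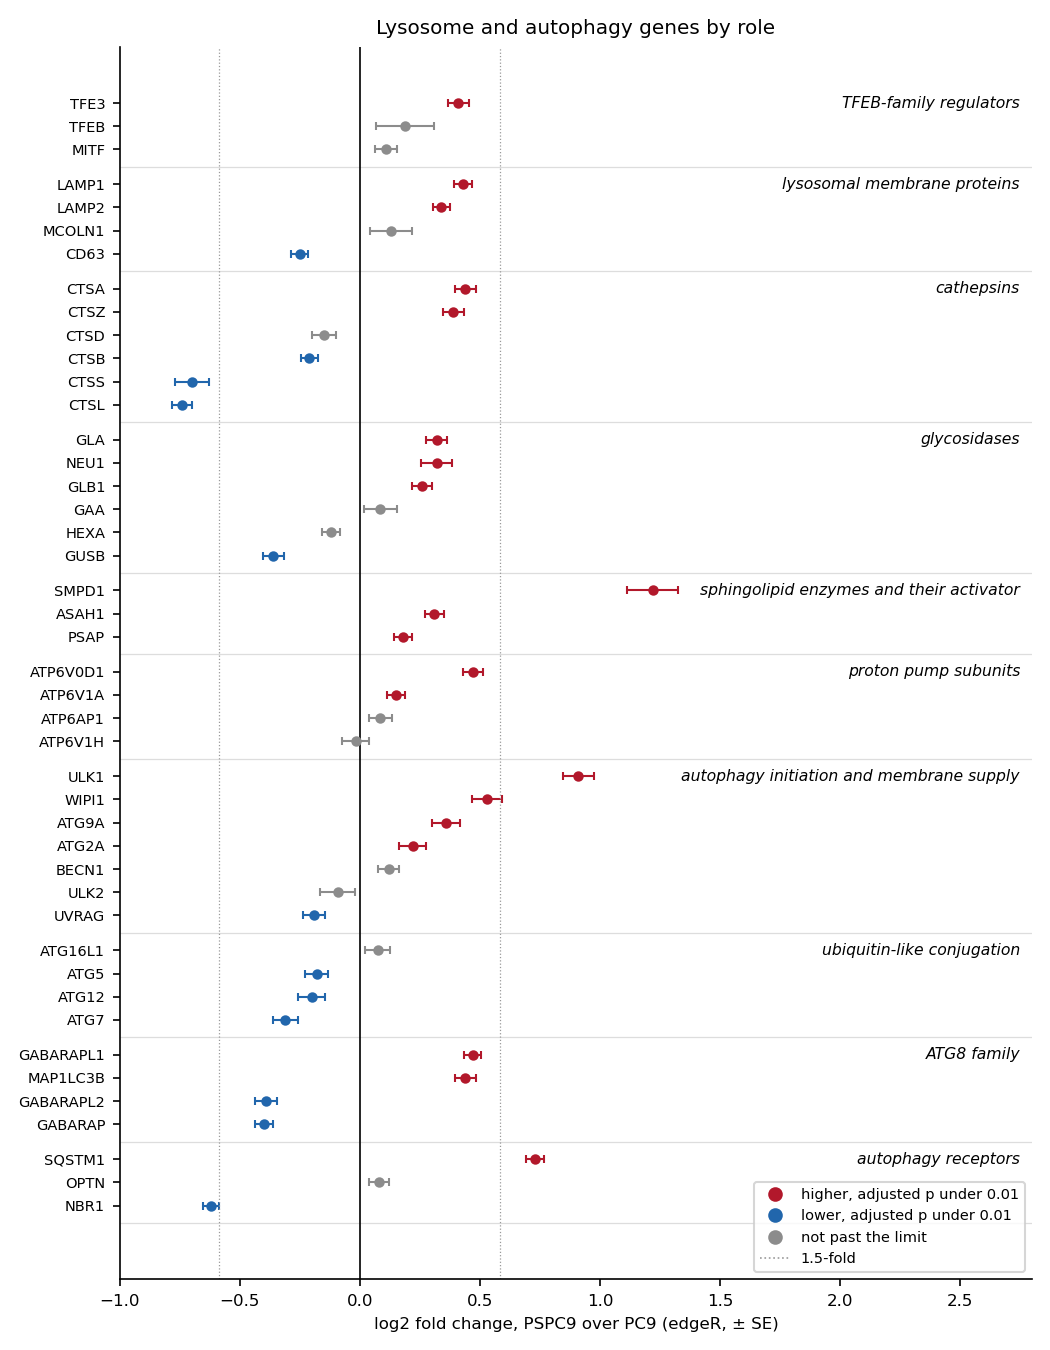
Log2 fold change of each of the 44 genes, PSPC9 over PC9, with its standard error from edgeR (n = 3 libraries per group), grouped by role. Red points passed an adjusted p of 0.01 as higher (20 genes), blue as lower (12 genes) and grey points did not pass, and most points lie within the dotted lines that mark 1.5-fold.

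The 3 transcription factors were expressed at very different levels, and 1 of them rose. TFE3 (chrX:49028726-49043410 of GRCh38) was measured at 48.9, 51.3 and 47.9 CPM (gene counts relative to the size of their library, scaled by the TMM method) in PC9 and at 65.7, 64.3 and 67.3 in PSPC9. Every PSPC9 library was above every PC9 library, and the change was 1.33-fold (log2 0.41 ± 0.0437 SE, edgeR adjusted p = 8.97e-06). Its main coding transcript, TFE3-201, did not pass on its own (log2 0.30 ± 0.07 SE, edgeR adjusted p = 0.0355). Nor did TFE3-204, annotated as a target of nonsense-mediated decay (0.75 ± 0.172 SE, edgeR adjusted p = 0.0347). TFEB (chr6:41683978-41736259), the family member best known as a master regulator of lysosomal genes, had 4.53, 5.49 and 4.51 CPM in PC9 and 4.8, 5.65 and 6.06 in PSPC9. Its groups overlapped and it did not pass the test (log2 0.19 ± 0.121 SE, edgeR adjusted p = 0.193). MITF (chr3:69739456-69968336), known mainly from melanocytes, had 32.5, 31.6 and 33.4 CPM in PC9 and 35.8, 35.2 and 34.1 in PSPC9. These values did not overlap, but the difference of 0.11 ± 0.0468 SE on the log2 scale missed the limit (edgeR adjusted p = 0.0587). Per kilobase of transcript, TFEB was the lowest of all 44 genes in both groups, at 2.13 ± 0.259 CPM per kilobase in PC9 and 2.42 ± 0.295 in PSPC9 (SD, n = 3), while TFE3 stood at 16.1 ± 0.538 and 21 ± 0.345. TFEC, the fourth family member, had 2 to 9 counts in any library and was not tested.

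The CLEAR element core, TCACGTGA, which is its own reverse complement, was searched for in the RefSeq promoter windows (GRCh38.p14, 250 bases before to 50 bases after each start site). Windows were available for 35 of the 44 genes, and not for LAMP2, CTSB, CTSS, HEXA, PSAP, ASAH1, ATP6V1H, ATP6V1A and UVRAG. Of the 35, 5 (14.3%) held the element, which was found in 1.18% of all 27305 genes with a window and in 0.98% of all windows. The stretch of 100 bases around it is given for each of the 5, 5′ to 3′ on the strand of the gene with the element in capitals, because these are the sequences through which TFEB-family proteins are known to act.
LAMP1, chr13:113297177-113297276, plus strand: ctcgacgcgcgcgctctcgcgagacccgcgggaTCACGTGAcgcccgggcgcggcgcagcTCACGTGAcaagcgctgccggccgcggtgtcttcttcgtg
CTSA, chr20:45891263-45891362, plus strand: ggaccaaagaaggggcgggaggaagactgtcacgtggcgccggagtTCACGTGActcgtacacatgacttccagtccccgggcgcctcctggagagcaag
ATP6V0D1, chr16:67481164-67481263, minus strand: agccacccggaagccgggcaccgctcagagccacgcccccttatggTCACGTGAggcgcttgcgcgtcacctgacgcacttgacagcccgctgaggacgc
MCOLN1, chr19:7522549-7522648, plus strand: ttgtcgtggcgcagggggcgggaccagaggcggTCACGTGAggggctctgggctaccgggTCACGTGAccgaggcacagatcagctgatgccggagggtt
GAA, chr17:80101480-80101579, plus strand: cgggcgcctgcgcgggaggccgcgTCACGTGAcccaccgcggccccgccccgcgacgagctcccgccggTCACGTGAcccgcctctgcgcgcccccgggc
LAMP1, MCOLN1 and GAA each held 2 copies, and CTSA and ATP6V0D1 held 1. The first copy began 29 bases before the start site in LAMP1, 26 in CTSA, 60 in ATP6V0D1, 42 in MCOLN1 and 77 in GAA. Of these genes, LAMP1, CTSA and ATP6V0D1 rose in PSPC9, as described for their groups, whereas MCOLN1 and GAA did not pass the test. Of all 236 tested genes with the element, 29.7% were higher and 26.7% lower, with a median log2 fold change of −0.002, beside the 28.7% and 28.1% of all genes. The shorter E-box CACGTG, which the CLEAR core contains, was in 8 of the 35 genes (22.9%, against 8.77% of all genes), and of these LAMP1, CTSA, NEU1 and ATP6V0D1 rose, CD63 fell, and MCOLN1, CTSD and GAA did not pass. TGATGCAA, a composite element of the stress factor ATF4 read on both strands, was in 0 of the 35 genes and in 1.08% of all genes. The CLEAR element is known from promoters of lysosomal genes. Its higher share here, and that of the E-box within it, is therefore tied to how the genes were chosen. A match of letters is a description of these windows and not evidence of binding.

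Among the lysosomal membrane proteins, the heavily glycosylated LAMP proteins rose and the tetraspanin CD63 fell. LAMP1 (chr13:113297239-113323672), one of the most abundant proteins of the lysosomal membrane, had 298, 317 and 303 CPM in PC9 and 406, 419 and 414 in PSPC9. The groups were well apart, at 1.35-fold (log2 0.43 ± 0.036 SE, edgeR adjusted p = 1.43e-06). LAMP2, its relative and the receptor of chaperone-mediated autophagy in 1 of its isoforms, rose from 225 ± 4.71 to 284 ± 3.93 CPM (SD, n = 3). CD63 (chr12:55725323-55729707), found in late endosomes and exosomes, had 194, 204 and 201 CPM in PC9 and 170, 168 and 165 in PSPC9. All its PSPC9 libraries were below all PC9 libraries, with a log2 fold change of −0.25 ± 0.0361 SE (edgeR adjusted p = 9.68e-05). Because both genes were read in the same libraries, their ratio needs no scaling between libraries: there were 1.54, 1.55 and 1.51 counts of LAMP1 per count of CD63 in PC9 and 2.39, 2.49 and 2.5 in PSPC9. MCOLN1, the calcium channel of the lysosome whose opening feeds back on TFEB, was at 7.62 ± 0.584 CPM in PC9 and 8.32 ± 0.39 in PSPC9 and did not pass (edgeR adjusted p = 0.211).

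The cathepsins, the proteases of the lysosome, were divided: of 6, 2 rose, 3 fell and 1 missed the limit. CTSA (chr20:45890144-45898949), a serine carboxypeptidase that also protects the galactosidase and neuraminidase complex, had 124, 133 and 123 CPM in PC9 and 166, 176 and 175 in PSPC9. It was higher in all 3 PSPC9 libraries by 1.36-fold (log2 0.44 ± 0.0429 SE, edgeR adjusted p = 4.71e-06), and CTSZ, a carboxypeptidase of the cysteine class, rose from 213 ± 7.3 to 278 ± 12.1 CPM. In CTSA, 10.8% of the exon bases overlap PLTP on the opposite strand, and the strand of counting is not given in the sources used here. CTSL (chr9:87724051-87731469), a cysteine endopeptidase, had 107, 106 and 108 CPM in PC9 and 61.9, 66.6 and 63.4 in PSPC9. That is 1.67-fold lower and was the largest decrease among the 44 genes (log2 −0.74 ± 0.0404 SE, edgeR adjusted p = 4.92e-08). CTSB, an abundant cysteine cathepsin, fell from 246 ± 6.05 to 213 ± 4.76 CPM. CTSD, the aspartic cathepsin, had 485, 563 and 511 CPM in PC9 and 460, 467 and 473 in PSPC9, which do not overlap. Its log2 fold change of −0.15 missed the limit (edgeR adjusted p = 0.0176), but passed it when PC9 replicate 1 was left out (edgeR adjusted p = 0.00109), as it did in DESeq2, under upper-quartile scaling, with library size only and with a replicate block (adjusted p = 0.00674, 0.00418, 0.00434 and 0.0065). Within libraries, CTSA and CTSL were nearly equal in PC9, with 1.16, 1.25 and 1.15 counts of CTSA per count of CTSL, and far apart in PSPC9, with 2.67, 2.64 and 2.76.

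CTSS (chr1:150730079-150765957), a cathepsin best known from antigen-presenting cells, was scarce. It had 11.5, 11.4 and 11.4 CPM in PC9 and 6.82, 7.15 and 7.08 in PSPC9. The libraries within each group were nearly equal, and the level was 1.63-fold lower in PSPC9 (log2 −0.70 ± 0.0705 SE, edgeR adjusted p = 6.16e-06). Beside it, the summed level of 6 macrophage and leukocyte markers was 2.56 to 2.82 CPM in PC9 and 15.5 to 16.4 in PSPC9. In PSPC9 that sum came almost wholly from ITGAM and CSF1R, while PTPRC, CD14, CD163 and MRC1 stayed at or under 0.617 CPM in every library. Of these 4, PTPRC had 0.32 to 0.356 CPM in PC9 and 0.0953 to 0.24 in PSPC9. CD14 had 0.475 to 0.617 and 0.137 to 0.318 CPM. Both were lower in every PSPC9 library, but on only 48 and 78 counts over the 6 libraries. CD163 and MRC1, with 37 and 6 counts, overlapped between the groups. The epithelial markers of the line were abundant in each group, summing to 5574 to 5985 CPM in PC9 and 3331 to 3499 in PSPC9. Fibroblast markers summed to 10.4 to 11 and 27.4 to 30.8 CPM, nearly all from COL1A1, with COL3A1 at 0 in every library, and endothelial markers to 8.19 to 8.88 and 3.6 to 4.03 CPM.

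**Figure D2:**
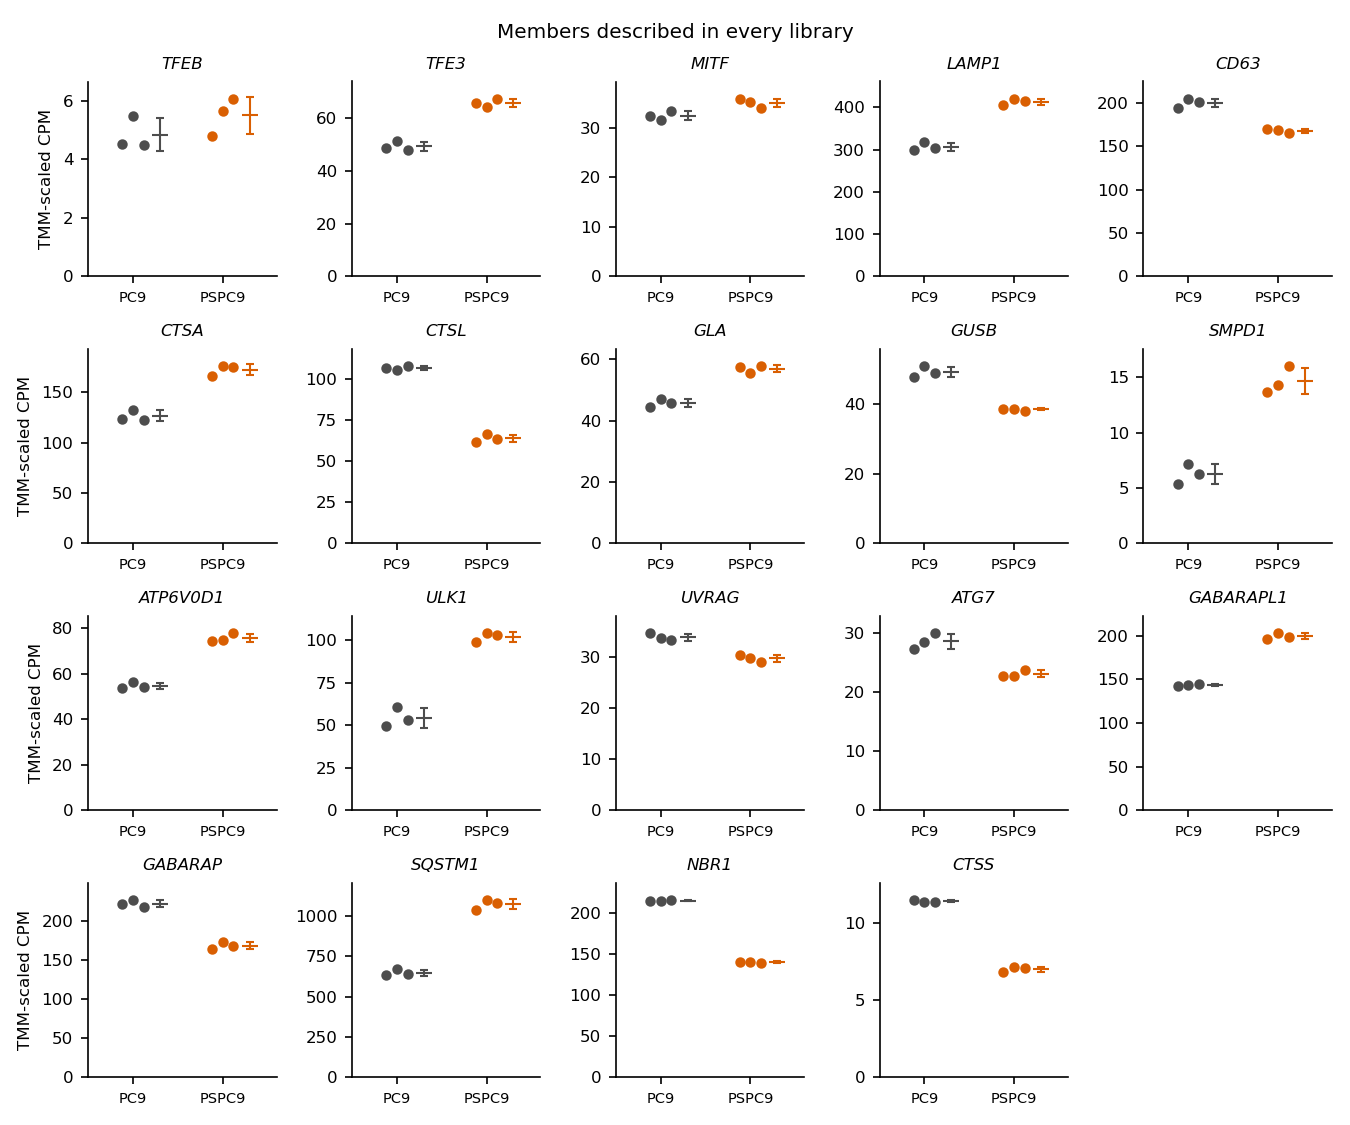
TMM-scaled CPM of 19 genes in each of the 6 libraries (dots: PC9 grey, PSPC9 orange) with the mean ± SD of each group (n = 3) beside them, each axis starting at 0. The groups overlap in TFEB and in none of the other panels. Apart from the 3 regulators, the genes were picked for the smallest p of their role or the largest changes. Their separation therefore follows from the choice.

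The glycosidases, which remove sugars from glycoproteins and glycolipids, rose in 3 of 6 cases and fell in 1. GLA (chrX:101393273-101408012), the alpha-galactosidase lost in Fabry disease, had 44.4, 47 and 45.7 CPM in PC9 and 57.3, 55.5 and 57.7 in PSPC9. The groups did not overlap, and the change was 1.24-fold (log2 0.32 ± 0.0428 SE, edgeR adjusted p = 6.40e-05). The beta-galactosidase GLB1 rose from 86.9 ± 2.1 to 104 ± 3.57 CPM and the sialidase NEU1 from 23.5 ± 0.815 to 29.5 ± 2.41, although the NEU1 call was lost when gene counts were summed from the matched transcripts (edgeR adjusted p = 0.255), which held 13.8 to 16.5% of its gene counts. GUSB (chr7:65960684-65982215), the beta-glucuronidase, had 47.7, 50.7 and 48.7 CPM in PC9 and 38.5, 38.6 and 38 in PSPC9. It fell 1.28-fold (log2 −0.36 ± 0.0436 SE, edgeR adjusted p = 2.95e-05). The glycogen-degrading GAA was at 108 ± 11.6 and 115 ± 4.5 CPM (edgeR adjusted p = 0.28). HEXA, the alpha subunit of the hexosaminidase lost in Tay-Sachs disease, was at 104 ± 3.34 and 95.3 ± 0.997 CPM (edgeR adjusted p = 0.0157). HEXA passed the limit without PC9 replicate 1, at an edgeR adjusted p of 0.00549. It also passed under upper-quartile scaling, with library size only and with a replicate block (edgeR adjusted p = 0.00272, 0.00248 and 0.00984).

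Each of the 3 genes of sphingolipid breakdown rose, with the largest increase of all 44 genes in SMPD1. SMPD1 (chr11:6390440-6394998) encodes the acid sphingomyelinase, which cleaves sphingomyelin to ceramide. Its level was 5.4, 7.17 and 6.3 CPM in PC9 and 13.7, 14.3 and 16 in PSPC9. The lowest PSPC9 library was thus well above the highest PC9 library, at 2.34-fold over the group means (log2 1.22 ± 0.105 SE, edgeR adjusted p = 1.72e-06). ASAH1, the acid ceramidase that takes ceramide further, rose from 113 ± 3.87 to 141 ± 3.14 CPM, or 1.24-fold. PSAP, the precursor of the saposins that present lipids to these enzymes, rose from 1056 ± 41.6 to 1199 ± 15.6 CPM, or 1.14-fold, and this call was lost when only library size was used for scaling (edgeR adjusted p = 0.0108). Per count of ASAH1 there were 0.046, 0.0653 and 0.0557 counts of SMPD1 in PC9 and 0.0959, 0.104 and 0.113 in PSPC9. Of the matched ASAH1 counts, 51.8 ± 2.34% in PC9 and 52.2 ± 2.81% in PSPC9 were assigned to ASAH1-242. That transcript is annotated as a target of nonsense-mediated decay, and it did not pass on its own (log2 0.29 ± 0.0574 SE, edgeR adjusted p = 0.0203).

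Of the 4 subunits of the proton pump, 2 rose and none fell. ATP6V0D1 (chr16:67438014-67481181), a subunit that joins the membrane sector to the catalytic sector, had 53.7, 56.2 and 54.4 CPM in PC9 and 74.5, 75 and 77.8 in PSPC9. The PSPC9 libraries were all higher, by 1.38-fold (log2 0.47 ± 0.041 SE, edgeR adjusted p = 2.06e-06). ATP6V1A, the catalytic subunit, rose from 116 ± 0.231 to 128 ± 4.69 CPM (log2 0.15, edgeR adjusted p = 0.00509). This call did not survive leaving out PC9 replicate 3, PSPC9 replicate 1 or PSPC9 replicate 3, where the edgeR adjusted p was 0.023, 0.024 and 0.0154. The accessory subunit ATP6AP1 was at 125 ± 7.7 and 132 ± 4.54 CPM (edgeR adjusted p = 0.142) and the regulatory subunit ATP6V1H at 19.4 ± 0.551 and 19.1 ± 0.662 CPM (edgeR adjusted p = 0.785).

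Genes that start autophagy and supply its membrane were higher in 4 of 7 cases. ULK1 (chr12:131894622-131923150), the kinase that mTORC1 restrains and that starts the process, had 49.3, 60.5 and 53.2 CPM in PC9 and 98.6, 104 and 103 in PSPC9. Its groups were far apart, at 1.88-fold (log2 0.91 ± 0.0655 SE, edgeR adjusted p = 4.40e-07). Its close relative ULK2 was at 15.2 ± 1.34 and 14.2 ± 0.331 CPM and did not pass (edgeR adjusted p = 0.284), so that there were 3.04, 3.86 and 3.89 counts of ULK1 per count of ULK2 in PC9 and 6.85, 7.51 and 7.14 in PSPC9. WIPI1, which binds the phosphoinositide of the growing membrane, rose from 12.2 ± 0.271 to 17.6 ± 0.969 CPM, or 1.44-fold, with 28.3% of its exon bases overlapping ARSG on the opposite strand. ATG9A, the transmembrane lipid scramblase carried by the seed vesicles, rose from 62.5 ± 5.23 to 80.2 ± 2.92 CPM. ATG2A, which transfers lipid into the growing membrane, rose from 45.3 ± 3.49 to 52.6 ± 1.29 CPM (edgeR adjusted p = 0.00601), but missed the limit without PC9 replicate 1 or 3 or without any one of the PSPC9 libraries, at edgeR adjusted p of 0.011 to 0.032. UVRAG (chr11:75815210-76144232), a partner of Beclin in the lipid kinase complex, had 34.7, 33.8 and 33.3 CPM in PC9 and 30.4, 29.8 and 29.1 in PSPC9. The groups did not overlap (log2 −0.19 ± 0.0459 SE, edgeR adjusted p = 0.00355), yet the call was lost without PC9 replicate 3, PSPC9 replicate 2 or PSPC9 replicate 3, at 0.0104, 0.016 and 0.0216, and in DESeq2. BECN1, which encodes Beclin itself, was at 55.8 ± 0.647 and 60.5 ± 2.39 CPM (edgeR adjusted p = 0.0344).

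Of the 4 members from the conjugation machinery, which attaches ATG8 proteins to lipid, none rose and 3 fell, by small amounts. Of all genes, 28.7% were higher and 28.1% lower. ATG7 (chr3:11272309-11557665), the enzyme that activates both ubiquitin-like proteins, had 27.3, 28.4 and 29.9 CPM in PC9 and 22.7, 22.7 and 23.7 in PSPC9. All PSPC9 libraries were lower, by 1.24-fold (log2 −0.31 ± 0.0533 SE, edgeR adjusted p = 0.000394). Of the ATG7 exon bases, 29.9% overlap VGLL4 on the opposite strand, a gene with 12609 counts over the 6 libraries beside 5103 for ATG7. ATG12, the ubiquitin-like protein joined to ATG5, fell from 53 ± 3.61 to 46.2 ± 1.55 CPM (log2 −0.20, edgeR adjusted p = 0.00805). ATG5 fell from 61.4 ± 2.93 to 54.3 ± 1.56 CPM (log2 −0.18, edgeR adjusted p = 0.00626). Both calls were near the limit: ATG12 lost it without PC9 replicate 1 or 3 or without any one PSPC9 library (edgeR adjusted p of 0.0121 to 0.0383), and ATG5 without PC9 replicate 3 or without any one PSPC9 library (0.0101 to 0.0377). ATG16L1, which brings the conjugate to the membrane, was at 33.9 ± 0.974 and 35.8 ± 2.05 CPM and did not pass (edgeR adjusted p = 0.246).

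The 4 ATG8 proteins split into a pair that rose and a pair that fell. GABARAPL1 (chr12:10212458-10223128) had 142, 144 and 145 CPM in PC9 and 196, 203 and 199 in PSPC9. GABARAP (chr17:7240008-7242449), from which it takes its name, had 221, 226 and 217 CPM in PC9 and 164, 173 and 167 in PSPC9. Both sets of values were apart between the groups, in opposite directions. Per kilobase of transcript GABARAP stayed the more abundant of the 2 in both groups, at 333 ± 6.08 CPM per kilobase in PC9 and 255 ± 13.1 in PSPC9, beside 80.1 ± 1.74 and 112 ± 6.23 for GABARAPL1. GABARAPL1 was 1.39-fold higher (log2 0.47 ± 0.0346 SE, edgeR adjusted p = 4.95e-07), and GABARAP was 1.32-fold lower (log2 −0.40 ± 0.037 SE, edgeR adjusted p = 3.27e-06). The other pair moved in the same way: MAP1LC3B, which encodes the LC3 protein used as the marker of autophagic membranes, rose from 74.6 ± 3.68 to 101 ± 1.08 CPM, and GABARAPL2 fell from 64.6 ± 2.41 to 49.4 ± 1.31. Within libraries there were 0.643, 0.636 and 0.67 counts of GABARAPL1 per count of GABARAP in PC9 and 1.2, 1.18 and 1.19 in PSPC9. For MAP1LC3B per count of GABARAPL2 the ratios were 1.16, 1.18 and 1.12 in PC9 and 2.03, 2.02 and 2.09 in PSPC9. These ratios and those of the other pairs do not depend on scaling between libraries, and the pairs were chosen after their values were seen. The near-identical copies that could share reads with 2 of these genes were scarce, with 16 to 38 counts of MAP1LC3B2 beside 2388 to 3419 of MAP1LC3B and 0 to 1 of GABARAPL3 beside 4892 to 6806 of GABARAPL1.

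The receptors that link ubiquitin-marked cargo to ATG8 proteins also diverged. SQSTM1 (chr5:179806398-179838078), which encodes p62, had 634, 671 and 643 CPM in PC9 and 1040, 1098 and 1082 in PSPC9. All PSPC9 libraries were far above all PC9 libraries, at 1.65-fold (log2 0.73 ± 0.037 SE, edgeR adjusted p = 3.05e-08), and this was the smallest p of the 44 genes. MRNIP overlaps 55.7% of the SQSTM1 exon bases on the opposite strand but had 2044 counts in all, beside 168178 for SQSTM1. NBR1 (chr17:43170481-43211689), its partner with a similar domain order, had 215, 215 and 216 CPM in PC9 and 141, 141 and 139 in PSPC9. The libraries within each group were almost identical, and the level was 1.53-fold lower (log2 −0.62 ± 0.0332 SE, edgeR adjusted p = 4.57e-08). Per count of NBR1 there were 2.95, 3.12 and 2.98 counts of SQSTM1 in PC9 and 7.37, 7.77 and 7.81 in PSPC9, so the mean ratio was 2.53-fold higher in PSPC9. OPTN, a receptor used for damaged mitochondria and bacteria, was at 55 ± 2.14 and 58.1 ± 0.543 CPM and did not pass (edgeR adjusted p = 0.124).

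Levels can be compared between genes only per length of transcript. On that scale PSAP was the most abundant of the 44 in both groups, at 484 ± 8.89 CPM per kilobase in PC9 and 558 ± 6.1 in PSPC9. In PC9 it was followed by GABARAP (333 ± 6.08), CTSD (296 ± 20.2), SQSTM1 (275 ± 7.58) and CD63 (250 ± 2.22). The place of GABARAP depends on how its counts were assigned to transcripts. Most went to short ones, for a mean length of 0.662 kilobases, and GABARAP-201 with 1319 bases held 8.26 ± 0.558% in PC9. CTSD and SQSTM1 are neighbours whose libraries overlapped in PC9, at 280 to 319 and 269 to 283. In PSPC9, SQSTM1 took the second place at 444 ± 14.1, ahead of CTSD at 269 ± 6.84 and GABARAP at 255 ± 13.1, whose libraries overlapped. CTSL dropped from place 12 to place 20 among the 44 (65.7 ± 0.465 to 38.9 ± 1.26 CPM per kilobase), whereas ULK1 moved from place 34 to place 30 (10.5 ± 1.07 to 20 ± 0.584) and SMPD1 from place 43 to place 40 (3.01 ± 0.489 to 7.12 ± 0.818). CTSS, ULK2, MCOLN1 and TFEB were among the 6 lowest in each group.

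**Figure D3:**
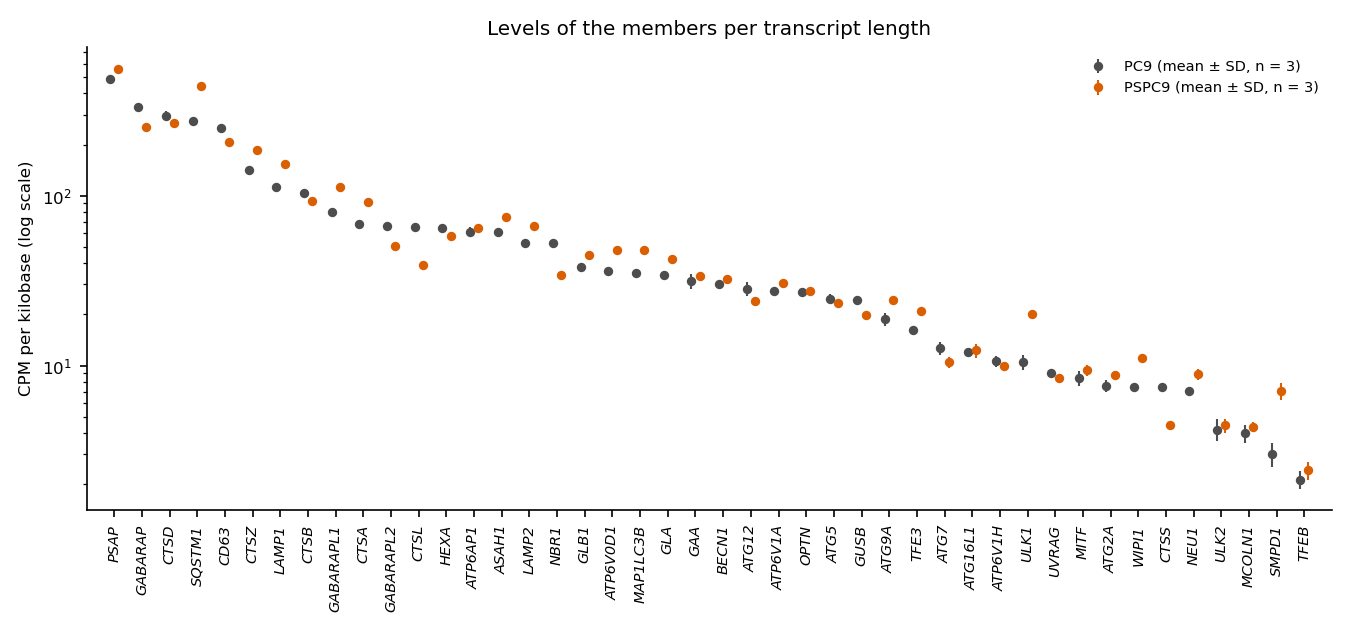
Levels of the 44 genes as CPM per kilobase of transcript on a log axis, ordered by the level in PC9, as mean ± SD of 3 libraries (PC9 grey, PSPC9 orange). PSAP is highest and TFEB lowest in both groups, and the distance between the paired points is the change between PC9 and PSPC9.

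At the level of transcripts, 227 transcripts of these genes were tested, of which 12 were higher and 6 lower in PSPC9 by the edgeR quasi-likelihood test at an adjusted p of 0.01, beside 3.89% and 3.91% of all 54499 transcripts. The most abundant transcript passed the limit in the direction of its gene in ULK1 (ULK1-201, log2 0.88 ± 0.0846 SE), NBR1 (NBR1-206, −0.65 ± 0.036) and CTSL (CTSL-201, −0.93 ± 0.047). SQSTM1 had a pair of main transcripts, and both rose: SQSTM1-201 by 0.59 ± 0.0678 SE and SQSTM1-202 by 0.85 ± 0.0525 SE on the log2 scale, with mean shares of 52.6 ± 1.27 and 43.9 ± 1.2% in PC9 and 48.7 ± 3.09 and 48.9 ± 2.94% in PSPC9. None of the 3 tested transcripts of CTSS passed, although each had a negative log2 fold change. These were −0.60 ± 0.155 SE for CTSS-201, −0.93 ± 0.163 for CTSS-202 and −0.66 ± 0.261 for CTSS-204 (edgeR adjusted p = 0.0502, 0.0142 and 0.159). SMPD1 did not have a transcript past the limit either. Its main transcript, SMPD1-201, held 52.2, 98 and 73.6% of its matched counts in PC9 and 66.1, 89.3 and 90.5% in PSPC9, so the shares spread widely within each group.

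LAMP2 makes 3 isoforms that differ in the end of the protein, and no shift among them was called between PC9 and PSPC9. LAMP2-201, which encodes the LAMP2A isoform required for chaperone-mediated autophagy, had a share of 40.2, 40.4 and 39% in PC9 and 38.7, 40.8 and 39.6% in PSPC9. LAMP2-202, which encodes LAMP2B, had 49.8, 49.5 and 51.2% and 51.7, 50 and 51.7%. LAMP2-203, which encodes LAMP2C, had 9.46, 9.8 and 9.82% and 9.19, 8.87 and 8.72%. The first 2 shares overlapped between the groups and the third did not, but the test of usage for the gene gave an adjusted p of 1 (edgeR diffSpliceDGE with Simes' method). The increase of LAMP2 was thus shared: LAMP2-201 rose by 0.31 ± 0.0333 SE and LAMP2-202 by 0.34 ± 0.0411 SE on the log2 scale, and LAMP2-203 had 0.19 ± 0.0563 SE without passing (edgeR adjusted p = 0.0725).

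Transcript usage passed the limit in 1 of the 43 genes that could be tested, ATG5, where 1.94% of all 10542 genes passed. ATG5-204, a coding transcript, held 14.9, 23 and 15.1% of the ATG5 counts in PC9 and 0.122, 0 and 4.42% in PSPC9. ATG5-211, annotated as a target of nonsense-mediated decay, held 26.8, 26.5 and 28.6% in PC9 and 41, 39.3 and 42.1% in PSPC9. Neither set of values overlapped between the groups. Tested on their own, neither transcript passed the limit. The log2 fold change was −3.72 ± 1.39 SE for ATG5-204 (edgeR adjusted p = 0.141) and 0.37 ± 0.0881 SE for ATG5-211 (edgeR adjusted p = 0.0376). ATG5-201 and ATG5-204 have coding sequences of the same length, 825 bases, and reads may be divided between them unevenly. Summed, an alternative added after seeing the data, they held 45.9, 50.7 and 46.9% in PC9 and 24.1, 26.5 and 29.7% in PSPC9. ATG5-208, with a shorter coding sequence of 591 bases, had a mean share of 22.3 ± 1.48% in PC9 and 30.3 ± 3.93% in PSPC9. The usage call stood just inside the limit (Simes adjusted p = 0.00991) and was lost without PC9 replicate 1, 2 or 3 (0.0523, 0.124 and 0.0723) and without PSPC9 replicate 1 or 2 (0.0883 and 0.0389), while without PSPC9 replicate 3 it was 1.47e-08. MITF shows how far estimated transcript counts can vary among replicates: MITF-202, the transcript that starts farthest downstream of its 3 longest ones, held 56.4, 75.2 and 47.9% in PC9 and 46.4, 41.7 and 64% in PSPC9, which overlap.

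**Figure D4:**
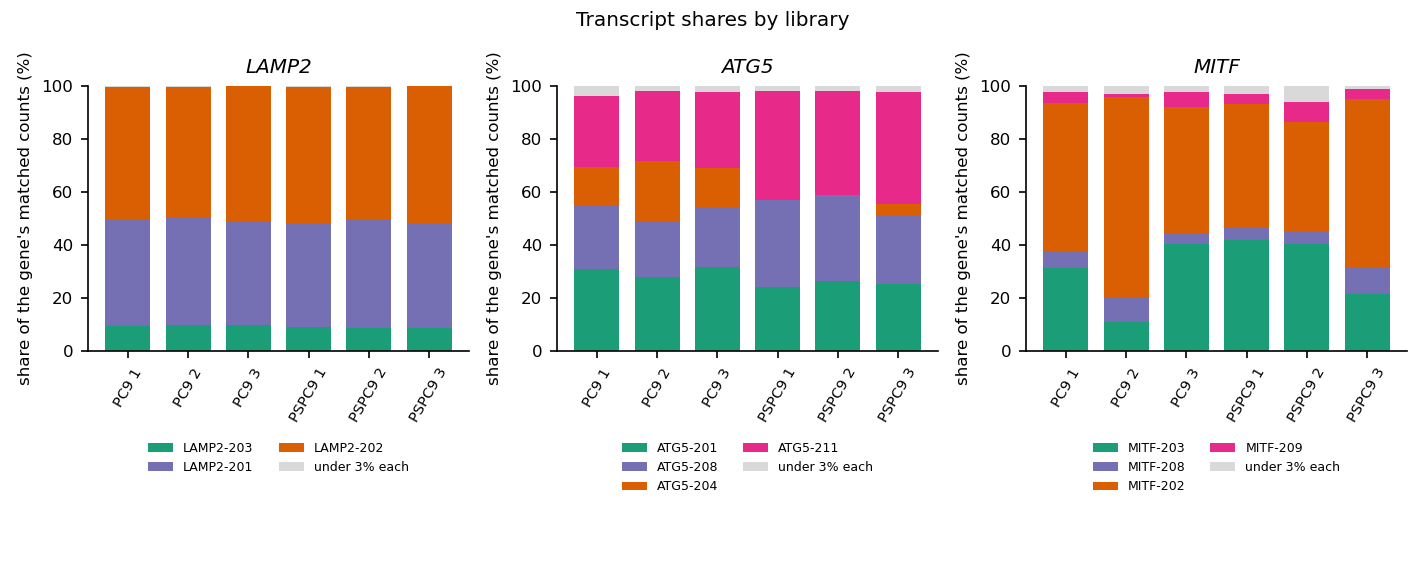
Share of each transcript in the matched counts of LAMP2, ATG5 and MITF (percent, stacked bars) in each of the 6 libraries, with transcripts under 3% on average combined in grey. The LAMP2 shares lie within a few percentage points of each other in all libraries, and the MITF shares vary within each group. ATG5-204 (orange) has a smaller share in PSPC9 and ATG5-211 (pink) a larger one, but neither transcript passed the limit on its own.

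Other genes of the same pathways, 156 genes in 7 lists that do not include the 44, also moved in both directions. Of 153 that could be tested, 87 (56.9%) passed the same edgeR test, beside 56.8% of all genes. Of these, 60 (39.2%) rose and 27 (17.6%) fell, beside 28.7% and 28.1% of all genes, and the median log2 fold change of the 153 was 0.11. In the rest of the proton pump, 9 of 18 tested subunits rose and 2 fell. The membrane-sector subunits ATP6V0E2, ATP6V0A1 and ATP6V0E1 rose by 0.67, 0.51 and 0.45 on the log2 scale. The 2 that fell were ATP6V1B1 (log2 −2.02) and ATP6V0A4 (−0.59), isoforms known mainly from the acid-secreting cells of the kidney.

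Among the other hydrolases and their activators, 13 of 36 rose and 8 fell. Those with the smallest p among the decreases were NPC2, which carries cholesterol inside the lysosome (log2 −1.42, from 461 ± 3.37 to 173 ± 3.69 CPM), LIPA, the acid lipase that frees cholesterol from its esters (−0.81), and the cysteine cathepsin CTSF (−1.03). The increases with the smallest p were in the sulfatases ARSB (0.80) and GALNS (0.67) and in the glycosylasparaginase AGA (0.65). Of 19 other lysosomal membrane proteins 8 rose and 3 fell, with LAMP3 (1.46), the cation channel MCOLN3 (1.03) and SCARB2, the carrier of glucocerebrosidase (0.41), higher. The 3 lower ones were CD68 (−1.83, from 74.8 ± 0.912 to 21.1 ± 1.62 CPM), SLC17A5 (−0.50) and CLN3 (−0.46). CD68 is used as a macrophage marker, and the levels of other leukocyte markers are given beside CTSS. Of these, ITGAM and CSF1R were higher in PSPC9 and PTPRC and CD14, on few counts, lower.

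The genes that sort newly made enzymes to the lysosome were higher in 5 of 11 cases and lower in 1, beside 28.7% and 28.1% of all genes. SORT1, the sorting receptor sortilin, rose by 1.38 on the log2 scale, from 43.4 ± 0.752 to 113 ± 1.64 CPM. IGF2R, the large mannose 6-phosphate receptor, rose by 0.88 and GNPTAB, which makes the mannose 6-phosphate tag, by 0.81. The adaptor GGA1 fell by 0.25.

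In the remaining autophagy core genes, 12 of 28 tested genes rose and 5 fell. The increases with the smallest p were in ATG4A, a protease that processes ATG8 proteins (log2 0.73), TP53INP2 (0.83) and RUBCN, a negative regulator of autophagosome maturation (0.50). The decreases with the smallest p were in the scramblases TMEM41B (−0.55) and VMP1 (−0.21) and in AMBRA1 (−0.38), a regulator of the initiating complexes. Of 13 further receptors 3 rose and 2 fell, with RETREG1, a receptor for the endoplasmic reticulum, at 1.28, WDFY3 at 0.35 and TAX1BP1 at 0.19, against PHB2 at −0.41 and NCOA4, the receptor for ferritin, at −0.17.

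Of 28 tested genes through which mTORC1 and the Rag GTPases control TFEB and TFE3, 10 rose and 6 fell, and the share past the limit, 57.1%, was close to that of all genes. SESN2, a stress-induced sensor of leucine that restrains mTORC1, rose by 1.65 on the log2 scale, MTOR by 0.84 and FLCN, the activating protein of the Rag GTPases that keeps TFEB in the cytoplasm, by 0.61. NPRL2, part of the complex that inhibits the Rag GTPases (−0.59), and the Ragulator subunits LAMTOR4 (−0.47) and LAMTOR5 (−0.31) fell. These lists rest on general knowledge, and none of them was tested as a set.

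**Figure D5:**
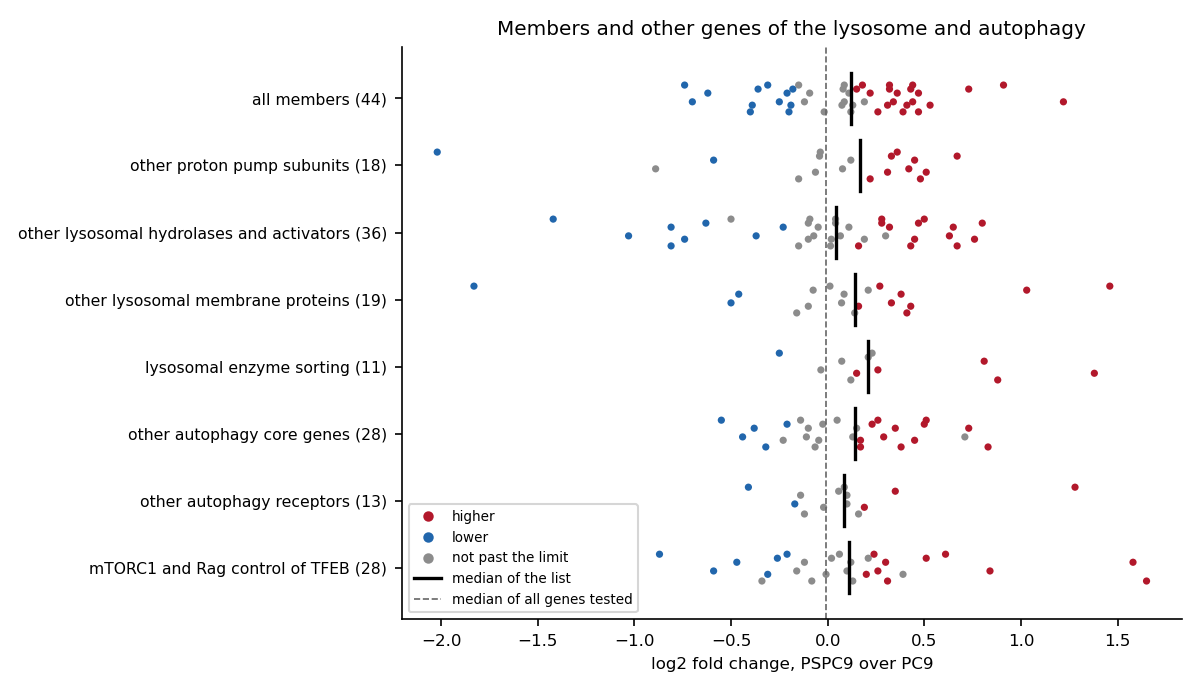
Log2 fold change (PSPC9 over PC9) of the 44 genes and of the other genes of each list, with the number tested in parentheses; red and blue points passed the edgeR limit as higher and lower and grey points did not. The black bar is the median of each list, 0.12 for the 44 genes, and the dashed line the median of all 14626 genes (−0.0061).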

How the data were processed

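Bulk RNA of 6 libraries was used (3 PC9, 3 PSPC9), grouped by their labels. The authors deposited estimated counts from kallisto (0.46.1 in the submitters' processing notes, which also list sleuth 0.30.0), made with Ensembl release 96 transcripts of GRCh38 and given as whole numbers, unnormalized, per gene symbol and per transcript. Estimates of kallisto's own error, and the libraries of a second laboratory that the study combined with these, were not used here, so the count test replaced sleuth. No source states whether counting used strand. With 3 libraries of bulk RNA per group, the p-values weigh the difference between groups against the spread between these libraries. The PSPC9 libraries were pools of cultures and the PC9 libraries were not, so this spread is not of the same kind in both groups.

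Gene counts were tested in R 4.3.3 with edgeR 4.0.16 (filterByExpr, TMM, glmQLFit and glmQLFTest, two-sided, no replicate block, Benjamini-Hochberg adjustment over all genes tested, limit 0.01), transcripts in the same way, and transcript usage with diffSpliceDGE and Simes' method. Standard errors (SE) were obtained as the log2 fold change over the root of the F statistic. Scripts were tested on simulated data. Coordinates and transcript lengths are from GENCODE 44, which matched 167067 of 188753 transcripts with 95.8% of transcript counts, and promoters from RefSeq. Alternatives were DESeq2 1.42.0, limma 3.58.1 (voom), other scalings and filters, summed transcripts, a limit of 0.05, a replicate block and leaving out each library.

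The 44 genes and the lists were chosen with earlier results of these data known. Values in every library are given for the 3 regulators, the gene of smallest p in each direction of each role and the 5 largest changes, and in the wider lists the 3 of smallest p in each direction are named. Replicates of a group differed by more than sampling noise (chi-square per degree of freedom from 3.5 to 21.1), so none was counted as a duplicate.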

Additional observations from a re-analysis of the deposited data

How the results depend on the processing

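Of the 32 genes past the limit, 25 passed it in all 16 alternatives. Besides the calls given in the report, ATP6V1A and ATG2A missed it under upper-quartile scaling (adjusted p = 0.0282 and 0.0178) and under library size alone (0.0552 and 0.0315). BECN1 passes at a limit of 0.05. ATP6V1H, at −0.018 and not called, changed sign without PC9 replicate 1 (0.0027) and without PSPC9 replicate 2 (0.008), in a range of −0.045 to 0.008 without 1 library. ATG12 missed the limit with summed transcripts (adjusted p = 0.0108) and UVRAG in DESeq2 (0.0171). With library size only, the median of the 44 genes was 0.069 and that of all genes −0.059. Leaving out 1 library at a time gave 18 to 20 higher and 9 to 13 lower genes, a median of 0.11 to 0.16, and 0 to 1 genes changed in usage. Usage gave 0 genes under a filter of 1 CPM. DESeq2 called 22 transcripts of these genes higher and 12 lower, against 12 and 6, and 3 other autophagy core genes lower, against 5; the causes were not tested.

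Whether replicate numbers pair the samples was not settled by these values. Deviations of libraries with the same number correlated at 0.124, 0.0236 and 0.0215, and those with other numbers at −0.117 to 0.0971. PC9 replicate 2 correlated best with PSPC9 replicate 3 (0.0971). With the replicate number as a block, 20 genes were higher, 14 lower (CTSD and HEXA in addition) and 0 changed in usage. TFEB, at 4.51 to 6.06 CPM, had the largest standard error of log2 fold change among the 44 genes (0.121), so a small difference in it could not be resolved here.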

Other observations

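Some transcripts moved apart from their genes; they were singled out after their values were seen. GAA, whose gene-level counts did not pass the test, had a minor transcript, GAA-204, that starts farther upstream than the main one and rose by 1.33 ± 0.207 SE on the log2 scale (edgeR adjusted p = 0.00916), from a mean share of 2.06 ± 0.434% in PC9 to 4.91 ± 0.479% in PSPC9. The main transcript, GAA-202, had −0.023 ± 0.089 SE. Within CTSB, CTSB-202 fell by 0.62 on the log2 scale with its share at 29.2 ± 1.76% in PC9 and 22.3 ± 0.284% in PSPC9, while CTSB-204 had −0.038 ± 0.0738 SE and did not pass (edgeR adjusted p = 0.803). The usage test did not pass for either gene.

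Among the genes that control TFEB, RRAGD and RRAGC, Rag GTPases through which FLCN acts on TFEB and TFE3, were named after their values were seen. RRAGD had 0.176 ± 0.00193 CPM in PC9 and 0.528 ± 0.183 in PSPC9 (SD, n = 3, log2 1.58 ± 0.378 SE, edgeR adjusted p = 0.00334), so its difference rests on few counts. RRAGC was far more abundant, at 41.2 ± 1.26 CPM in PC9 and 47.5 ± 1.02 in PSPC9 (log2 0.20 ± 0.0444 SE, edgeR adjusted p = 0.00188). SESN3, a relative of SESN2, fell from 2.36 ± 0.538 to 1.29 ± 0.144 CPM (log2 −0.87, edgeR adjusted p = 0.00287), opposite to SESN2.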
